A study of Mus musculus with 4 samples.

Results

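The genes described here are 10 genes of bone morphogenetic protein (BMP) signalling, taken by symbol from the 48587 gene symbols of the count table: the ligand genes *Bmp4* and *Bmp6*, the receptor genes *Bmpr1a* and *Bmpr2*, the genes *Grem1* and *Bmper* of secreted BMP-binding proteins, the inhibitory SMAD gene *Smad6*, and *Id1*, *Id2* and *Id3*, which are target genes of the pathway. They were listed by name and not by a rule on a measured value, but with earlier results of these data known. All 10 were among the 18916 genes with enough counts to be tested. The cells were primary vascular smooth muscle cells (VSMCs) cultured from the descending aorta of adult C57BL/6J mice, and every culture was transduced with a lentivirus that carried a short hairpin RNA. The shCTR libraries carried a nontargeting hairpin against a plant microRNA sequence, and the shMettl14 libraries carried a single hairpin against *Mettl14*, whose protein forms, with METTL3, the enzyme complex that writes N6-methyladenosine (m6A) into mRNA. Each hairpin had 2 libraries of poly-A RNA, with the replicate letters A and B. The sources do not say whether a letter marks a shared culture, how many animals gave cells, or whether the 2 libraries of a hairpin were separate cultures, so that p-values measure only the spread between these libraries, which may be technical.

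BMP ligands bind a complex of type I and type II receptor kinases, and the type I receptor then phosphorylates SMAD1, SMAD5 and SMAD9, which enter the nucleus with SMAD4 and switch on target genes. The *Id* genes are among the most direct of these targets: ID proteins have a helix-loop-helix but no DNA-binding region, and they hold E proteins and related factors away from DNA. *Smad6* is a target as well and encodes an inhibitor of the same pathway, while proteins such as gremlin capture ligands outside the cell. In the vessel wall BMP signalling is known for its part in smooth muscle differentiation, endothelial maturation and calcification, and loss of BMPR2 underlies heritable pulmonary arterial hypertension.

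The 4 libraries held between 114343653 and 124815868 counts. At this depth a library with 0 counts of a gene could still have held 3, or at most 0.0278 CPM. CPM values are counts scaled to a common library size, here with TMM factors. *Mettl14* had 2050 and 2154 counts in shCTR A and B and 546 and 568 counts in shMettl14 A and B, and both shMettl14 libraries were thus below both shCTR libraries. Its level in the shMettl14 libraries was 23.6% of that in the shCTR libraries, with a log2 change of -2.08 (SE 0.248) that had an edgeR adjusted p of 1.0. Other fits changed this call: with the letter as a replicate block the adjusted p was 0.0039, and with DESeq2 it was 1.7e-09. An exact two-sided permutation test of 2 against 2 libraries cannot give a p under 0.333. The labelled cell type was present by its markers, with *Acta2* between 2073 and 3547 CPM, and the 8 smooth muscle markers summed to 6799 and 5772 CPM in shCTR A and B and to 4442 and 4811 CPM in shMettl14 A and B. Endothelial markers were abundant too: the 9 on the list summed to 1920 and 4068 CPM in shCTR A and B and to 1812 and 2523 CPM in shMettl14 A and B, with *Pecam1* between 477 and 820 CPM and none of the 9 at 0 in any library. *Emcn*, between 484 and 2100 CPM, made up the largest part of the shCTR B sum, and without it the other 8 summed to 1272 and 1969 CPM in shCTR A and B and to 1329 and 1446 CPM in shMettl14 A and B. Of 6 leukocyte markers, the 4 with enough counts to be tested summed to between 6.13 and 9.61 CPM, while *Cd3e* was at 0 counts in 3 libraries and *Adgre1* at 0 in 2. Within both letters, 6 of the 8 smooth muscle markers were lower with shMettl14 and 0 higher, and 3 of the 9 endothelial markers were lower and 0 higher, against 27.7% lower and 30% higher over all genes tested. In bulk RNA, fewer cells of a type and less RNA per cell cannot be told apart.

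Promoter sequence is shown for *Smad6*, *Id3*, *Id2* and *Grem1*, because these genes turned out to differ in how far their levels moved between libraries. The windows run from 250 bases before the RefSeq start site to 30 bases after it on GRCm38.p6. They were searched for a pair of palindromes, each of which reads the same on both strands: GTCTAGAC, the optimal SMAD-binding palindrome, and GGCGCC, a GC-rich form bound by BMP-activated SMADs. RefSeq windows were at hand for 9 of the 10 genes. Capitals mark the matches.
Smad6, chr9:64022030-64022309, minus strand: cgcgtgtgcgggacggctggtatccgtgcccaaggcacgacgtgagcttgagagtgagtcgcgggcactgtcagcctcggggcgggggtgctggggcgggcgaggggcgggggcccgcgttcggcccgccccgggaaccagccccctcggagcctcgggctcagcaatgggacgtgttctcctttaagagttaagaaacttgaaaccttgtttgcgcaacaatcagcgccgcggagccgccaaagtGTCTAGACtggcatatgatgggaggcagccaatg
Id3, chr4:136143572-136143851, plus strand: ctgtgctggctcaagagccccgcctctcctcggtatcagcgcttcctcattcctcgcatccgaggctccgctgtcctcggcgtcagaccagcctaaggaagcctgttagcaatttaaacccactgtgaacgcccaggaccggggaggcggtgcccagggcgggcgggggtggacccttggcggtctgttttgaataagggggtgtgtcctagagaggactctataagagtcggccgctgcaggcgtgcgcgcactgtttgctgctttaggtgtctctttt
Id2, chr12:25096063-25096342, minus strand: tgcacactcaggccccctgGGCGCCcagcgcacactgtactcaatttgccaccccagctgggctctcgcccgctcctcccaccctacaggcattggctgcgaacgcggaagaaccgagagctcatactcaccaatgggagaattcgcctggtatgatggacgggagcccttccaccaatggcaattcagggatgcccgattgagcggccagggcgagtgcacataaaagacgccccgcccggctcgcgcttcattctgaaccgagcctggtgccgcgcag
Grem1, chr2:113758619-113758898, minus strand: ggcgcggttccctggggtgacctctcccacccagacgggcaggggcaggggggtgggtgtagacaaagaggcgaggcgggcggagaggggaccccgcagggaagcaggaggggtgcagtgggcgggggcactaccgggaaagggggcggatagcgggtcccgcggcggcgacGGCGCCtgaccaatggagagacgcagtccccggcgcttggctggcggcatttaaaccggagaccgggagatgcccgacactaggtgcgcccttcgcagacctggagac

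The *Smad6* window held GTCTAGAC, with its first base at -4 from the start site. Of 32851 mouse promoter windows of the same length, 63 (0.192%) held it. GGCGCC was found in the windows of *Grem1* (first base at -78), *Id2* (-231), *Bmpr1a* (-198) and *Bmpr2* (-105), and in 10.9% of all windows. The *Id3* window had neither. A match is a run of letters and was not measured as a binding site in these cells.

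The letters GGACT, a common form of the m6A consensus, were searched on the sense strand of 1 annotated transcript per gene (GENCODE M21), because the hairpin targets an m6A writer and m6A is known to be dense around stop codons. No m6A was measured in these libraries. The transcripts of *Bmp4*, *Bmpr2*, *Id1*, *Id2*, *Id3* and *Bmper* had a copy within 200 bases of the last coding base, 6 of 10 genes, against 39.8% of 14367 genes. The nearest copies in the 5 of these genes in which the site lies within a single exon are shown with 10 bases on each side, the motif in capitals, on GRCm38.
Id1, chr2:152737027-152737051, plus strand, 3′ UTR: gggaccagatGGACTccagcccttc
Id3, chr4:136144907-136144931, plus strand, 3′ UTR: tgggaccctgGGACTctgggaccct
Bmp4, chr14:46383720-46383744, minus strand, 3′ UTR: ccctatagctGGACTtttatcttaa
Bmper, chr9:23484089-23484113, plus strand, 3′ UTR: agccagtgaaGGACTgttgtatttg
Bmpr2, chr1:59870346-59870370, plus strand, coding sequence: ccgagccgctGGACTgtgaggtcaa

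The A of the motif lay 29 bases past the last coding base in *Id1*, 21 in *Id2* and 66 in *Id3*, so that all 3 *Id* transcripts had a copy just inside the 3′ UTR. Per kilobase of transcript, *Id1* held 3.21 copies, *Bmp4* 2.42, *Id3* 2.35 and *Id2* 2.03, against a median of 1.05 over all genes. These transcripts are short, and the density of *Id1* rests on 3 copies in 934 bases. *Grem1* and *Bmpr1a* were at the low end, with 0.241 and 0.336 copies per kilobase.

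No member of the pathway set passed the test of shMettl14 against shCTR. edgeR's quasi-likelihood test, with p-values adjusted (Benjamini-Hochberg) over 18916 genes, gave each of the 10 genes an adjusted p of 1.0, and it called 0 genes in the whole table (0% of those tested). At an unadjusted p under 0.05, 0 of the 10 genes were higher, against 0.656% of all genes, and 0 were lower, against 1.01%. With the letter as a replicate block, 0 of the 10 had an adjusted p under 0.05, against 0.0476% of all genes, and 0 an unadjusted p under 0.05, against 10.3%. With DESeq2 both counts were again 0, against 0.0211% and 2.05%. The fitted log2 changes of the 10 genes ran from -0.24 (*Id3*) to 0.17 (*Bmpr1a*), with a median of 0.02, against 0.01 over all genes tested. This median rested on single libraries, at -0.24 without shMettl14 A, -0.20 without shCTR B, 0.17 without shMettl14 B and 0.41 without shCTR A. No gene of the set had both shMettl14 libraries above both shCTR libraries, where 14.7% of all genes did, and none had both below, where 13.3% did. Within both letters, *Bmp6*, *Bmpr1a*, *Id2* and *Bmper* were higher with shMettl14, 4 of 10 against 30% of all genes, and *Bmp4* and *Grem1* were lower, 2 of 10 against 27.7%. These shares lay near the background. How narrow the intervals were differed from gene to gene, and so did the level of each gene between the letters.

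**Figure D1:**
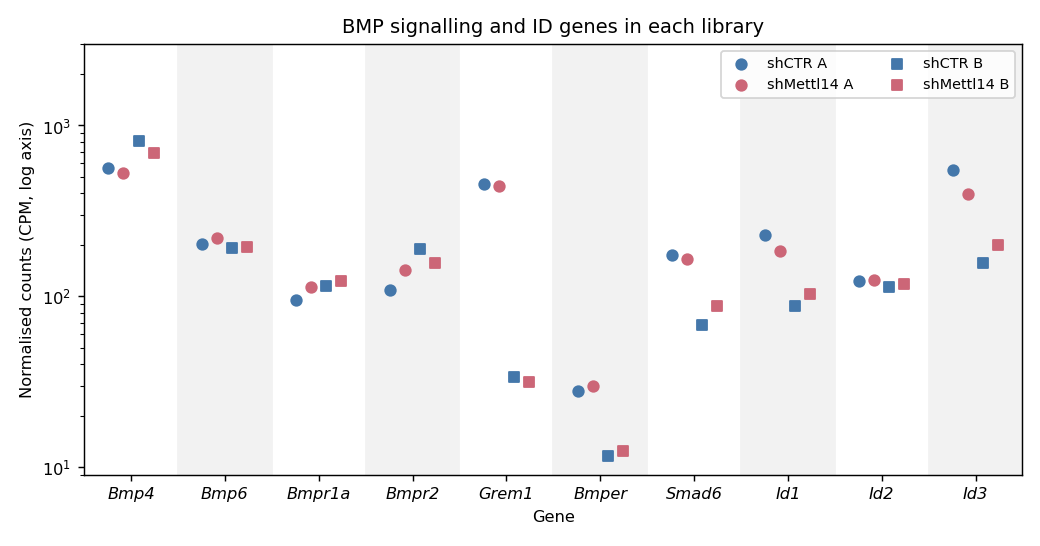
Normalised counts (CPM, log axis) of the 10 genes in each of the 4 libraries. Blue marks shCTR, red shMettl14, circles letter A and squares letter B, and each point is 1 library. *Grem1* sits between 440 and 456 CPM in the letter A libraries and between 31.5 and 33.8 CPM in the letter B libraries, while *Id2* stays between 114 and 125 CPM in all 4.

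*Bmp4* encodes a ligand of the BMP2 and BMP4 branch of the family. It had 567 and 814 CPM in shCTR A and B and 528 and 688 CPM in shMettl14 A and B. The shMettl14 library was the lower one within each letter, but the groups overlapped, because both letter B libraries were above both letter A libraries. Group means were 691 ± 175 CPM (SD, n = 2) for shCTR and 608 ± 113 CPM (SD, n = 2) for shMettl14. The fitted log2 change was -0.18 (SE 0.271, 95% interval -0.88 to 0.52). The gene lies on the minus strand of chromosome 14 from 46383520 to 46390669 (GRCm38), and 3.96% of its exonic bases overlap *Gm15217* on the other strand.

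*Bmp6* encodes a ligand of the BMP5, BMP6 and BMP7 branch, known in the body for its part in iron balance. It had 203 and 193 CPM in shCTR A and B and 220 and 194 CPM in shMettl14 A and B. The 4 libraries were close together, the shMettl14 B library lay between the shCTR libraries, and the difference within letter B was smaller than that within letter A. The log2 change was 0.07 (SE 0.192, 95% interval -0.42 to 0.56). Per kilobase of exon (RPKM, the CPM divided by the exonic length in kilobases), *Bmp4* was the more abundant ligand, at between 4.15 and 7.34 times the level of *Bmp6* in the 4 libraries. An overlap with *Txndc5* on the other strand covers 5.74% of the exonic bases of *Bmp6*, which lies on the plus strand of chromosome 13 from 38345107 to 38500302.

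*Bmpr1a* encodes a type I receptor kinase for BMP ligands. It had 94.8 and 116 CPM in shCTR A and B and 113 and 123 CPM in shMettl14 A and B. Each shMettl14 library was above the shCTR library of its letter, the log2 ratio being 0.26 for letter A and 0.09 for letter B. The shCTR B library was above the shMettl14 A library, so that the groups overlapped. The log2 change was 0.17 (SE 0.205, 95% interval -0.36 to 0.69), the largest rise of the 10 genes, and it was within the spread between libraries. Its exons, on the minus strand of chromosome 14 from 34410734 to 34503341, overlap *Gm17110* on the other strand in 4.57% of their bases.

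*Bmpr2* encodes the type II receptor kinase that activates the type I partner. It had 109 and 190 CPM in shCTR A and B and 143 and 157 CPM in shMettl14 A and B. The shCTR libraries were the lowest and the highest of the 4, with both shMettl14 libraries between them. The log2 ratio of shMettl14 to shCTR was 0.39 for letter A and -0.27 for letter B, and the fitted change was 0.01 (SE 0.314, 95% interval -0.80 to 0.81). With either of 2 other fits (RLE size factors, and DESeq2) the fitted change had the opposite sign, at -0.0045. *Bmpr2* lies on the plus strand of chromosome 1 from 59763400 to 59879014, and no other annotated gene overlaps its exons. Per kilobase, *Bmpr1a* was at between 1.72 and 2.47 times the level of *Bmpr2*. This ratio depends on the lengths used, which were exon unions of 6351 bases for *Bmpr1a* and 17983 for *Bmpr2*. The single transcripts searched for GGACT had 5956 and 12899 bases.

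*Grem1* encodes gremlin, a secreted antagonist that captures BMP2, BMP4 and BMP7. It had 456 and 33.8 CPM in shCTR A and B and 440 and 31.5 CPM in shMettl14 A and B. Its levels followed the letter and differed little between the hairpins: letter A was 13.5-fold above letter B with shCTR and 14.0-fold above it with shMettl14. Within a letter, the shMettl14 library had 0.965 times the shCTR level in A and 0.932 times in B. Since the fit had no term for the letter, the log2 change of -0.06 carried an SE of 1.53 and a 95% interval of -3.99 to 3.88. This interval is wide enough to hold a change of the size seen for *Mettl14*. With the letter as a replicate block the interval was -0.42 to 0.27. The gene lies on the minus strand of chromosome 2 from 113746164 to 113758646. Per kilobase, the ratio of *Grem1* to *Bmp4* was 0.436 and 0.451 in shCTR A and shMettl14 A, and 0.0225 and 0.0248 in shCTR B and shMettl14 B.

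*Bmper* encodes a secreted BMP-binding protein of the chordin family that can hold back or favour BMP signalling. It had 27.7 and 11.6 CPM in shCTR A and B and 29.997 and 12.3 CPM in shMettl14 A and B. Like *Grem1*, it was lower in letter B with both hairpins, and the shMettl14 library was the higher one within each letter, the log2 ratio being 0.12 for letter A and 0.09 for letter B. The fitted change was 0.11 (SE 0.597, 95% interval -1.43 to 1.65). *Bmper* lies on the plus strand of chromosome 9 from 23223076 to 23485200.

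*Smad6* encodes an inhibitory SMAD that binds activated type I receptors. It had 173 and 68.2 CPM in shCTR A and B and 166 and 87.8 CPM in shMettl14 A and B. Both letter A libraries were above both letter B libraries, and both shMettl14 libraries lay between the shCTR libraries. The log2 ratio was -0.06 for letter A and 0.37 for letter B, with a fitted change of 0.07 (SE 0.540, 95% interval -1.32 to 1.46). The gene lies on the minus strand of chromosome 9 from 63953076 to 64022059.

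*Id1* had 229 and 87.6 CPM in shCTR A and B and 184 and 103 CPM in shMettl14 A and B. Its lowest and highest libraries were both shCTR libraries, as for *Smad6*. The log2 ratio was -0.32 for letter A and 0.24 for letter B, and the fitted change was -0.14 (SE 0.536, 95% interval -1.52 to 1.24). *Id1* is a gene of 1 exonic block on the plus strand of chromosome 2 from 152736251 to 152737410.

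*Id3*, which like *Id1* encodes an inhibitor of E protein binding to DNA, had 552 and 157 CPM in shCTR A and B and 399 and 200 CPM in shMettl14 A and B. The order of the libraries was that of *Id1*. Group means were 354 ± 279 CPM (SD, n = 2) for shCTR and 300 ± 141 CPM (SD, n = 2) for shMettl14, and the SDs were larger than the difference. The log2 ratio was -0.47 for letter A and 0.35 for letter B, and the fitted change was -0.24 (SE 0.664, 95% interval -1.95 to 1.47). *Id3* lies on the plus strand of chromosome 4 from 136143497 to 136145755.

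*Id2* did not share the spread of the other *Id* genes. It had 122 and 114 CPM in shCTR A and B and 125 and 117 CPM in shMettl14 A and B. All 4 libraries were close together, and the log2 ratio was 0.03 for letter A and 0.04 for letter B. The fitted change was 0.04 (SE 0.186), and its 95% interval of -0.44 to 0.51 was the narrowest of the 10 genes. *Id2* lies on the minus strand of chromosome 12 from 25093799 to 25097140.

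**Figure D2:**
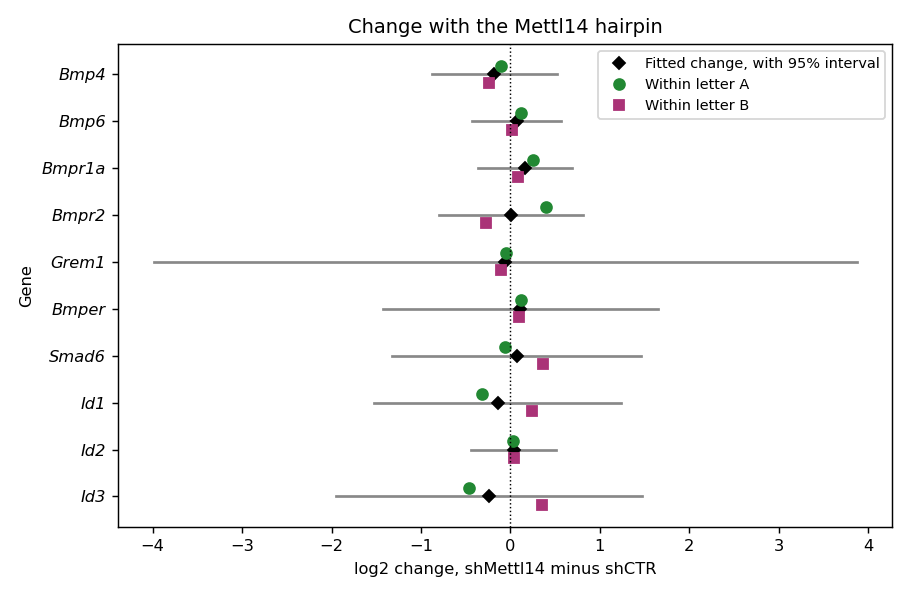
Log2 change with shMettl14 against shCTR for the 10 genes. Black diamonds are the fitted changes with 95% intervals as grey lines (2 libraries per group), green circles the ratio within letter A and purple squares the ratio within letter B. All intervals cross 0, that of *Grem1* from -3.99 to 3.88, and for *Bmpr2*, *Smad6*, *Id1* and *Id3* the 2 letters lie on opposite sides of 0.

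The *Id1*, *Id3* and *Smad6* libraries stood in the same order, from shCTR A at the top through shMettl14 A and shMettl14 B to shCTR B. This order, which was looked for after the values were seen, held for 3 of the 10 genes and for 10.5% of all genes tested. Between the letters, *Id3* was 3.51-fold higher in A than in B with shCTR and 2.00-fold with shMettl14. *Id1* was 2.61-fold and 1.78-fold higher, and *Smad6* 2.54-fold and 1.89-fold higher. The distance between the letters was smaller in the shMettl14 libraries for all 3 genes, but the order itself fixes this. Over all genes tested the median absolute log2 difference between the letters was also smaller with shMettl14, at 0.34, than with shCTR, at 0.51. With 1 library for each hairpin and letter, such a difference has no test. *Smad7*, the other inhibitory SMAD gene and also a BMP target, was named after its values were seen. It had 180 and 86.8 CPM in shCTR A and B and 173 and 116 CPM in shMettl14 A and B, the same order again. Of the 46 other pathway genes tested, *Smad7* among them, 6 had this order, against 10.5% of all genes. On the list of other target genes, 0 of 8 had it. The endothelial marker sum moved the other way, highest in shCTR B and higher in B than in A with both hairpins. The 8 smooth muscle markers were split, with 4 lower and 4 higher in B than in A with both hairpins. The part of cell makeup in the levels of these genes was not tested.

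The letters differed more than the hairpins for the set as a whole. Of the 10 genes, 7 were lower in letter B with both hairpins (*Bmp6*, *Id1*, *Id2*, *Id3*, *Smad6*, *Grem1* and *Bmper*), against 36.7% of all genes. For *Bmp6* and *Id2* the log2 difference was small, at -0.08 and -0.10 with shCTR and -0.18 and -0.09 with shMettl14. *Grem1* and *Bmper* were over 2-fold lower with both hairpins, against 4.73% of all genes. *Bmp4*, *Bmpr1a* and *Bmpr2* were higher in letter B with both hairpins, none of them over 2-fold with both, against 3.83% of all genes. The median absolute log2 difference between the shCTR libraries was 1.03 over the 10 genes and 0.51 over all genes tested. Between the shMettl14 libraries it was 0.61 over the 10 genes and 0.34 over all genes, while the median absolute ratio of the hairpins within a letter was 0.12 in A and 0.17 in B, against 0.26 and 0.31 over all genes. Abundant genes have less counting noise than the average gene, and these medians are not matched for level. Of the endothelial markers, 7 of 9 were higher in letter B with both hairpins and 1 of 9 lower. Of the smooth muscle markers, 4 of 8 were higher and 4 of 8 lower. Over all genes 36.7% were lower in this way, and the share that was higher was not computed. What set the letters apart was not tested.

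**Figure D3:**
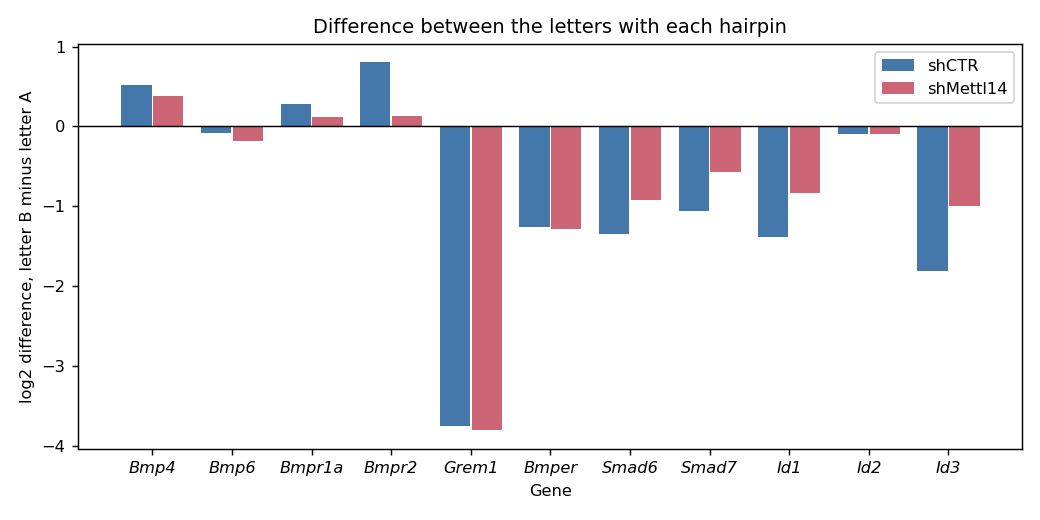
Log2 difference between the letter B and the letter A library, drawn separately for shCTR (blue) and shMettl14 (red), with 1 library behind each end of a bar. *Grem1* falls lowest at -3.75 and -3.80, *Bmper*, *Smad6*, *Smad7*, *Id1* and *Id3* lie below 0 with both hairpins, and *Bmp6* and *Id2* are near 0.

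Levels can be compared between genes only per kilobase of exon. The length used here is the union of all annotated exons of a gene, which can be longer than any 1 transcript. By mean RPKM over the 4 libraries, *Bmp4* stood highest at 289, followed by *Id3* at 183 and *Id1* at 130. *Grem1* had 57.9, *Bmp6* 52.0, *Id2* 49.0 and *Smad6* 38.6, and *Bmpr1a* (17.6), *Bmpr2* (8.32) and *Bmper* (4.22) were the lowest. The neighbours in the middle of this order overlapped: *Grem1* ranged from 7.58 to 110 RPKM, *Smad6* from 21.3 to 54.1 and *Id1* from 75.5 to 197, while *Bmp6* (49.4 to 56.5) and *Id2* (46.7 to 51.2) had narrow ranges that met each other. *Bmp4* (235 to 362) overlapped *Id3* (87.8 to 308) only through the shCTR A library of *Id3*. The ratio of *Id3* to *Id1* was between 1.16 and 1.56 in all 4 libraries, whereas the ratio of *Id1* to *Id2* ran from 1.62 to 3.94.

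The rest of the pathway was described by 52 further genes in 6 lists, of which 46 could be tested. None had an unadjusted p under 0.05. Within both letters, 16 of the 46 were higher with shMettl14 and 11 lower, against 30% and 27.7% of all genes. The median log2 change was 0.08 over the 46 genes and 0.01 over all genes.

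Among 12 other ligand genes, 7 were tested and 3 were higher within both letters. *Gdf6*, a ligand of the GDF5 branch and the most abundant of them by CPM, had 270 and 39.2 CPM in shCTR A and B and 298 and 44.0 CPM in shMettl14 A and B. It followed the pattern of *Grem1*, with letter A 6.89-fold above letter B for shCTR and 6.77-fold for shMettl14. *Bmp2* was tested at low levels, between 39 and 199 counts. *Bmp3*, *Bmp5*, *Bmp7*, *Bmp10* and *Gdf2* had at most 10 counts in any library and were not tested.

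All 9 other receptor and coreceptor genes were tested, with 3 higher and 3 lower within both letters. *Eng*, which encodes endoglin, a coreceptor abundant on endothelial cells, was the most abundant, at 284 and 537 CPM in shCTR A and B and 247 and 337 CPM in shMettl14 A and B. It was lower with shMettl14 within each letter, the groups overlapped, and the fitted log2 change was -0.49 (SE 0.370, edgeR adjusted p = 1.0). The sum of the endothelial markers had the same order of libraries as *Eng* (shCTR B, shMettl14 B, shCTR A, shMettl14 A from high to low), but without *Emcn* the letter A libraries changed places in it. The part of cell makeup in the *Eng* values was not tested.

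Among the 7 other genes of SMADs and of the SMURF ubiquitin ligases that degrade them, 2 were higher and 2 lower within both letters. *Smurf2*, the most abundant, had 199 and 302 CPM in shCTR A and B and 253 and 285 CPM in shMettl14 A and B, without a common direction. *Smad5*, a signal-transducing SMAD of this pathway named after its values were seen, had 42.9 and 42.8 CPM in shCTR A and B and 54.8 and 61.8 CPM in shMettl14 A and B. Here the groups did not overlap, with log2 ratios of 0.36 and 0.53 within the letters, and the fitted change of 0.45 (SE 0.191) had an unadjusted p of 0.0674 in edgeR's model and an adjusted p of 1.0. In the same list *Smad9* also had both shMettl14 libraries above both shCTR libraries, and *Smad1* and *Smurf1* had both below, so that 2 of 7 genes were separated in each direction, against 14.7% above and 13.3% below over all genes.

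Of 13 other genes for extracellular modulators, 12 were tested, with 4 higher and 3 lower within both letters. *Fstl1*, for a secreted follistatin-like protein, was the most abundant, between 2250 and 2798 CPM, and both shMettl14 libraries were above both shCTR libraries, with a fitted change of 0.22 (SE 0.185, edgeR adjusted p = 1.0).

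Of 8 other target genes, 3 were higher and 2 lower within both letters. *Tsc22d1*, the highest of them by CPM but not per kilobase, had 94.8 and 129 CPM in shCTR A and B and 97.9 and 124 CPM in shMettl14 A and B, and showed no common direction. The E proteins that ID proteins bind were represented by 3 genes, of which 1 was higher and 1 lower within both letters. *Tcf4*, the highest by CPM and the lowest per kilobase, had 145 and 156 CPM in shCTR A and B and 204 and 163 CPM in shMettl14 A and B. Both shMettl14 libraries were on top, with a fitted change of 0.29 (SE 0.212, edgeR adjusted p = 1.0). Its rank per kilobase depends on the length used, an exon union of 27382 bases against 4039 for *Tcf3* and 15529 for *Tcf12*.

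**Figure D4:**
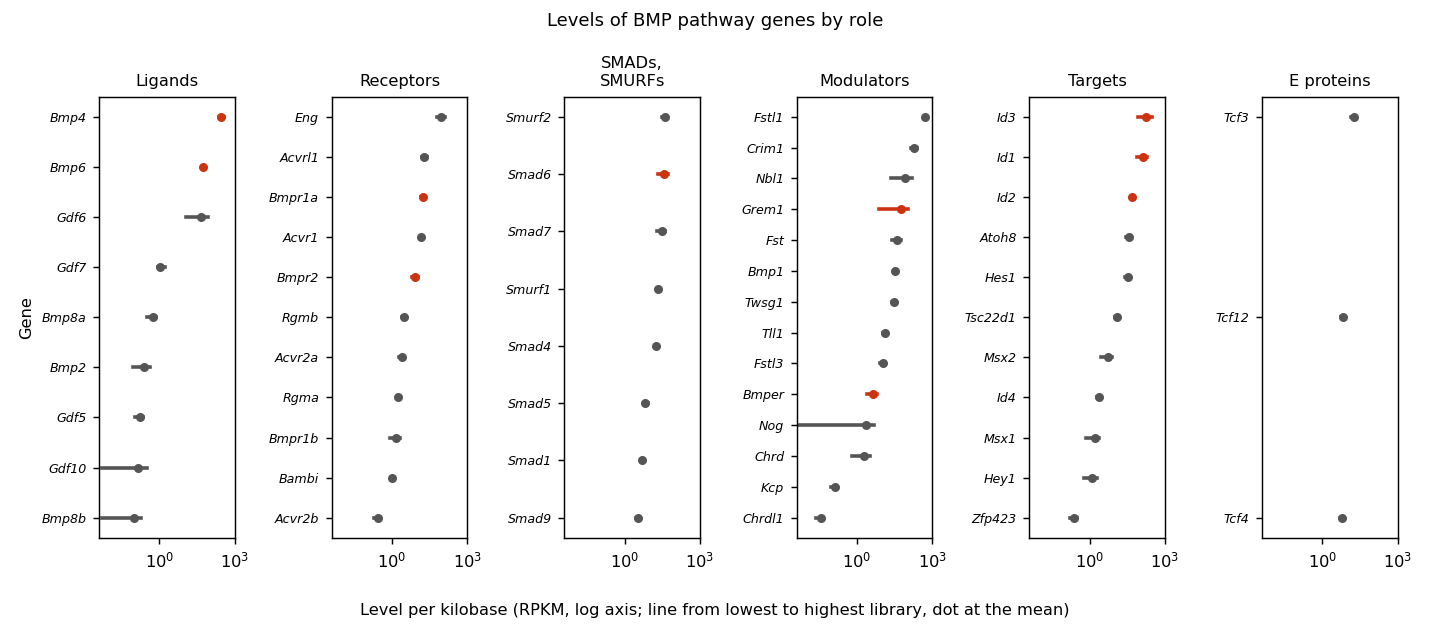
Levels per kilobase of exon (RPKM, log axes) of the 56 tested pathway genes by role. Dots are means of 4 libraries, lines run from the lowest to the highest library, and red marks the 10 genes of the set. The lines of *Bmp8b* and *Nog*, which had 0 counts in shCTR B, are cut off just inside the left edge. *Bmp4* is the highest ligand at 289 RPKM, *Fstl1* the highest modulator at 497 RPKM, and *Id3* the highest target at 183 RPKM.

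The genes whose profile over the 4 libraries was most like the mean profile of *Id1*, *Id2* and *Id3* were *Abhd8*, *Cuta* and *Hyi*, by Euclidean distance of centred log2 CPM (0.0548, 0.0556 and 0.0578) among 9095 genes with a mean of at least 10 CPM. With only 4 libraries, many genes can share a profile. *Id2* was nearly flat, so that the mean profile moved less than *Id1* and *Id3* did. The distance also depends on how far a profile moves and not only on its order of libraries. By this distance *Smad7* ranked 142, *Smad6* 410 and *Bmper* 1113, whereas *Bmpr2* (8092), *Bmp4* (7699) and *Grem1* (9045) were far from the mean profile.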

How the data were processed

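The authors prepared strand-specific poly-A libraries, aligned read pairs to mm10 (Ensembl 86) using STAR and obtained gene counts from featureCounts, per the labels and the study's methods; whether counting used strand is not given in the sources used here. The deposited values are raw counts, in 1 table of 48587 symbols and 4 libraries. The test was edgeR 4.0.16 in R 4.3.3: TMM, filterByExpr (18916 genes), robust quasi-likelihood fit of shMettl14 against shCTR without a block, Benjamini-Hochberg adjusted p under 0.05. The SE is the absolute log2 change over the root of F. Within-letter ratios are differences of log2 CPM with a prior count of 2. RPKM used GENCODE M21 exon unions. Each list's gene with the highest mean CPM is named, with any gene at an unadjusted p under 0.05 and the 3 nearest profiles. The members, the pathway and marker lists (smooth muscle, endothelial, fibroblast, leukocyte, osteochondrogenic) and the rule were chosen with earlier results of these data known, and 1 pathway gene is not reported here. Alternatives were RLE and upper-quartile factors, a minimum of 1 count over all libraries, a minimum of 10 counts in each, DESeq2 1.42.0, a replicate block, and each library left out. The fits were tested on simulated data. Limits from counts cover counting error only.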

Additional observations from a re-analysis of the deposited data

How the results depend on the processing

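None of the 10 genes had an adjusted p under 0.05 under any alternative run, where their adjusted p-values ran from 0.694 to 1.0, or an unadjusted p under 0.05. Over all genes, edgeR called 0 with 315 at an unadjusted p under 0.05, the replicate block called 9 (1941 unadjusted), DESeq2 called 4 (387 unadjusted), and leaving out 1 library gave 0 to 1 (*Alb*, without shCTR B). *Mettl14* passed with the replicate block (-2.08, adjusted p = 0.0039) and with DESeq2 (-2.09, adjusted p = 1.7e-09), and ran from -2.15 to -2.01 without each library. The letters were not stated to pair the samples, and libraries of the same letter deviated together (r = 0.578 over genes), with a common dispersion of 0.178 without and 0.0418 with the block. Under the block no member passed, *Grem1* had a log2 change of -0.08 with a 95% interval of -0.42 to 0.27, and 4 of the 46 other pathway genes had an unadjusted p under 0.05, against 10.3% of all genes: *Smad5* (0.44, adjusted p = 0.387), *Hey1* (0.72, adjusted p = 0.368), *Eng* (-0.43, adjusted p = 0.440) and *Chrd* (0.47, adjusted p = 0.466).

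Signs turned for *Bmpr2* with RLE factors and DESeq2 (-0.0045 in both) and for *Tsc22d1* with upper-quartile factors (0.0083) and with no filter (0.0037), values close to 0. Without each library in turn, 9 of the 10 genes changed direction in at least 1 fit, and *Bmpr1a* held (0.03 to 0.31). Fits that leave out a library compare 1 library with 2, the lone one being assumed to vary like the others. The ranges were -0.42 to 0.10 for *Bmp4*, -0.024 to 0.16 for *Bmp6*, -0.34 to 0.46 for *Bmpr2*, -0.68 to 0.72 for *Id1*, -0.016 to 0.092 for *Id2*, -0.88 to 0.94 for *Id3*, -0.46 to 0.90 for *Smad6*, -2.96 to 2.81 for *Grem1* and -0.67 to 0.88 for *Bmper*. For *Id1* and *Id3* the highest value came without shCTR A and the lowest without shCTR B. Among other genes named, the ranges were -1.82 to 2.13 for *Gdf6*, -0.87 to 0.039 for *Eng*, -0.16 to 0.44 for *Smurf2*, -0.21 to 0.22 for *Tsc22d1*, -0.67 to 1.76 for *Chrd*, -0.32 to 0.74 for *Smad7*, 0.12 to 0.45 for *Tcf4*, 0.12 to 0.31 for *Fstl1*, 0.19 to 1.36 for *Hey1* and -2.31 to 11.92 for *Nog*, which is at 0 counts in shCTR B.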

Other observations

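*Nog*, which encodes noggin, a secreted protein that captures BMP ligands, was singled out after its values were seen. It had 875 counts in shCTR A and 877 in shMettl14 A, 101 counts in shMettl14 B and 0 counts in shCTR B, where the limit that a count of 0 allows is 3 counts. Letter A was above letter B with both hairpins, as for *Grem1* and *Gdf6*. The genes of the modulator list that were over 2-fold lower in letter B with both hairpins were *Nog*, *Chrd* and *Nbl1*, 3 of 12 tested. Those of the ligand list were *Bmp8b*, *Gdf5*, *Gdf6* and *Gdf10*, 4 of 7 tested, and the share over all genes was 4.73%. Of these ligand genes only *Gdf6* was abundant. *Bmp8b*, *Gdf5* and *Gdf10* had low counts, at most 81, 63 and 194 in any library.

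*Hey1*, a target gene shared by BMP and Notch signalling and named after its values were seen, had 4.53 and 2.04 CPM in shCTR A and B and 6.54 and 3.87 CPM in shMettl14 A and B. Each shMettl14 library was above the shCTR library of its letter, the groups overlapped, and the edgeR adjusted p was 1.0. The osteochondrogenic markers, genes that BMP signalling can raise in calcifying vessels, summed to 274 and 458 CPM in shCTR A and B and to 225 and 337 CPM in shMettl14 A and B, with 4 of 6 lower and 0 higher with shMettl14 within both letters, against 27.7% and 30% of all genes. The fibroblast markers summed to between 736 and 917 CPM, with 2 of 7 higher and 1 lower. Among the 4 osteochondrogenic markers that were lower was *Sp7*, which had very low counts. It had 5 and 11 counts in shCTR A and B and 2 and 11 in shMettl14 A and B. *Col2a1*, between 115 and 348 CPM, made up the largest part of the osteochondrogenic sum in each library.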
